A study of Mus musculus with 3 samples.

Results

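Single-base insertions of A or T in introns were followed through the exome sequences of 3 lines of MB49, a mouse bladder cancer cell line. The set held every insertion of 1 base, A or T, that the deposited gene annotation placed in an intron on chromosomes 1 to 19 in at least 1 of the 3 lists, matched on chromosome, start and alleles. It came to 589 insertions of the 23347 insertions and deletions (indels) listed in any library, or 6.50% of the 9059 autosomal intronic indels. The Y negative library listed 360 of them, the Y positive library 341 and the parental library 364.

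The Y negative group is an MB49 line labelled negative for the Y chromosome, the Y positive group is an MB49 line labelled positive for it, and the parental group is the MB49 line itself. All 3 were grown in the same serum-containing medium with no treatment named. The sources used here do not say how the Y negative and Y positive lines were obtained. Each group held 1 library, so no difference between groups has a replicate check, and every test compares entries or reads of libraries and not conditions. The samples' short descriptions read MBP for Y negative and MBN for Y positive, which run against the genotype labels if P and N stand for positive and negative, as no label states.

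DNA polymerases can slip on a run of identical bases, so that a copy gains or loses a unit, and mismatch repair removes most such errors before the next division. Runs of A or T are the most common runs of this kind in mammalian introns, where a change of length usually leaves the protein untouched. Gains and losses of 1 base in such runs are also produced by polymerase chain reaction (PCR) and by sequencing, which places a true change of length and a technical one at the same positions.

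A few members lay at sites where the authors' genotype held 2 alternative alleles, and there the files write out both. The called alleles of 4 such sites are shown because they hold different lengths at 1 place, with the base before the change in lower case and the gained or lost bases in capitals. At each site the alternatives are different numbers of copies of the same base.

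chr1:32390295, reference: gT
chr1:32390295, alternatives: g and gTT
chr2:84607332, reference: g
chr2:84607332, alternatives: gA and gAA
chr8:119651309, reference: g
chr8:119651309, alternatives: gT and gTT
chr13:38282226, reference: g
chr13:38282226, alternatives: gA and gAA

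Coordinates are those of the files, which are not mm10 and for which mm9 is the other build named by the submitters' processing notes. The bases that follow were not read here, since no genome of that build was used, so the length of the run at each site is unknown. A and T were inserted about equally often, 304 times (51.6%, 95% interval 47.5 to 55.7) and 285 times. The base before an inserted A was G at 119 sites, T at 112, C at 73 and A at 0, and the base before an inserted T was C at 107, G at 96, A at 82 and T at 0. A call written at the left end of its run has another base before it, and both counts of 0 are of that form.

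Depth limited what could be read from many members. The median depth was 23 reads in Y negative, 27 in Y positive and 23 in parental, with 2 to 318, 2 to 297 and 1 to 341 reads. Fewer than 5 reads covered 73 of the Y negative entries (20.3%), 47 of the Y positive (13.8%) and 70 of the parental (19.2%). Genotypes and allele fractions are therefore given at a depth of at least 20 reads unless stated, which 198 Y negative, 202 Y positive and 202 parental entries reached. Over all their entries the libraries listed 12465, 10334 and 11709 indels with median depths of 7, 13 and 9 reads.

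The insertions were often homozygous, that is, carried by nearly all reads. Of the entries with at least 20 reads, 77 were homozygous in Y negative (38.9%, 95% interval 32.1 to 46.1), 83 in Y positive (41.1%, 34.2 to 48.2) and 80 in parental (39.6%, 32.8 to 46.7). Heterozygous entries, with reads of the reference and of the insertion, made up 112 (56.6%), 108 (53.5%) and 112 (55.4%). The intervals of the 3 libraries overlapped for each genotype. Intervals are exact (Clopper-Pearson) and cover counting error only, since reads carry no molecular identifiers and neighbouring indels can share reads.

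Single-base deletions of A or T in introns, 2060 in all, were homozygous much less often. The homozygous share was 38.9% of insertions against 12.8% of deletions in Y negative, 41.1% against 14.5% in Y positive and 39.6% against 12.1% in parental. The differences were 26.1, 26.6 and 27.5 percentage points, each past a two-sided Fisher exact test (adjusted p = 1.78e-14, 2.30e-14 and 7.88e-16, Benjamini-Hochberg over 24 share tests). Against the 1131 intronic single-base indels of G or C, of which 32.0%, 35.3% and 35.0% were homozygous in the same order of libraries, the differences of 6.90, 5.77 and 4.57 points were short of the threshold by Fisher exact test (adjusted p = 0.340, 0.484 and 0.539). With a minimum of 10 reads Y negative and Y positive passed against G or C indels (Fisher exact test, adjusted p = 0.0498 and 0.00916), and without chromosomes 3, 4 and 18 the sign turned in all 3 libraries. Chromosomes 8 and 11, with 15 and 13 members homozygous in all 3 libraries, were kept when those chromosomes were left out. The Fisher exact test treats entries as independent, while homozygous members were clustered along chromosomes, so its p-values for this share are too small. The homozygous share was added to the comparisons after its values had been seen.

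The same contrast can be read from the other side, as the share of insertions among all single-base A or T indels in introns. Insertions were 42.3% of the homozygous ones in Y negative (77 of 182), 41.9% in Y positive (83 of 198) and 46.5% in parental (80 of 172). They were 14.0% of the heterozygous ones in Y negative (112 of 799), 14.3% in Y positive (108 of 754) and 14.8% in parental (112 of 756). In each library the intervals of the homozygous and heterozygous shares did not overlap.

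**Figure D1:**
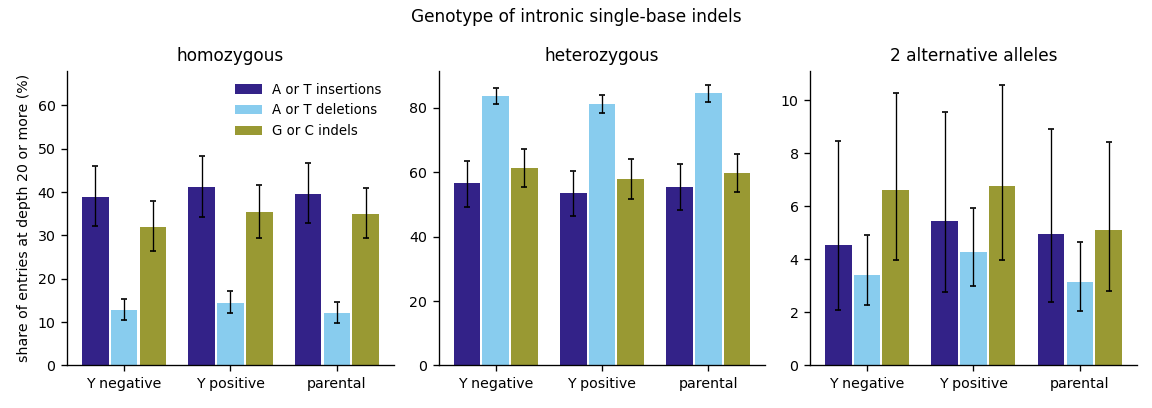
Share of entries with at least 20 reads (%) that were homozygous, heterozygous or had 2 alternative alleles, for A or T insertions, A or T deletions and G or C indels in the Y negative, Y positive and parental libraries; bars are shares and error bars exact 95% intervals. Homozygous shares of insertions lie between 38.9% and 41.1%, and those of A or T deletions between 12.1% and 14.5%.

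The 5 members homozygous in all 3 libraries with most reads show how complete these calls were. The T insertion at chr5:125095684, in an intron of ENSMUST00000037865, was carried by 279 of 279 Y negative reads, 254 of 254 Y positive reads and 273 of 273 parental reads. A further T insertion, at chr8:109585757, was carried by all 133, 155 and 118 reads in the same order, and those at chr18:65358260 (198, 175 and 214 reads) and chr18:61398164 (130, 117 and 100 reads) by every read as well. At chr11:51341407 a T insertion kept a few reference reads in every library, with the insertion in 137 of 152, 118 of 129 and 109 of 118 reads. Among all homozygous entries with at least 20 reads, 51 of 77 Y negative, 54 of 83 Y positive and 57 of 80 parental entries had no reference read, and the lowest allele fractions were 0.901, 0.875 and 0.878.

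Heterozygous insertions were carried by fewer than 1 in 2 reads at most sites. The median allele fraction, the reads with the insertion over all reads of the entry, was 0.359 in Y negative (95% interval 0.333 to 0.409), 0.370 in Y positive (0.346 to 0.426) and 0.393 in parental (0.350 to 0.452). The middle 50% of values lay between 0.289 and 0.494, 0.297 and 0.504, and 0.286 and 0.529. An allele fraction over 0.5 was found in 26 of 112 Y negative, 27 of 108 Y positive and 35 of 112 parental heterozygous insertions. Heterozygous A or T deletions had medians of 0.422, 0.470 and 0.454, and heterozygous G or C indels 0.436, 0.504 and 0.469. Over all heterozygous autosomal intronic indels of this depth the medians were 0.381, 0.404 and 0.404, so low values were not particular to the insertions.

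Allele fractions under 0.3 were counted for a test of that difference. They made up 31 of 112 Y negative (27.7%), 28 of 108 Y positive (25.9%) and 33 of 112 parental heterozygous insertions (29.5%). The shares among heterozygous A or T deletions were 23.0%, 14.2% and 16.8%. The Fisher exact test was passed in Y positive and parental (adjusted p = 0.0163 and 0.0114) and not in Y negative (adjusted p = 0.484). With the limit at 0.25 in place of 0.3 none of the 3 passed the Fisher exact test (adjusted p = 0.646 in Y negative, 0.874 in Y positive and 0.0626 in parental). Against G or C indels, with 22.8%, 23.3% and 18.9%, no library passed at 0.3 by the Fisher exact test (adjusted p = 0.565, 0.759 and 0.116). Over all heterozygous autosomal intronic indels of this depth the shares under 0.3 were 30.6%, 25.9% and 27.3%. These are near the shares of the insertions and were not tested against them.

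**Figure D2:**
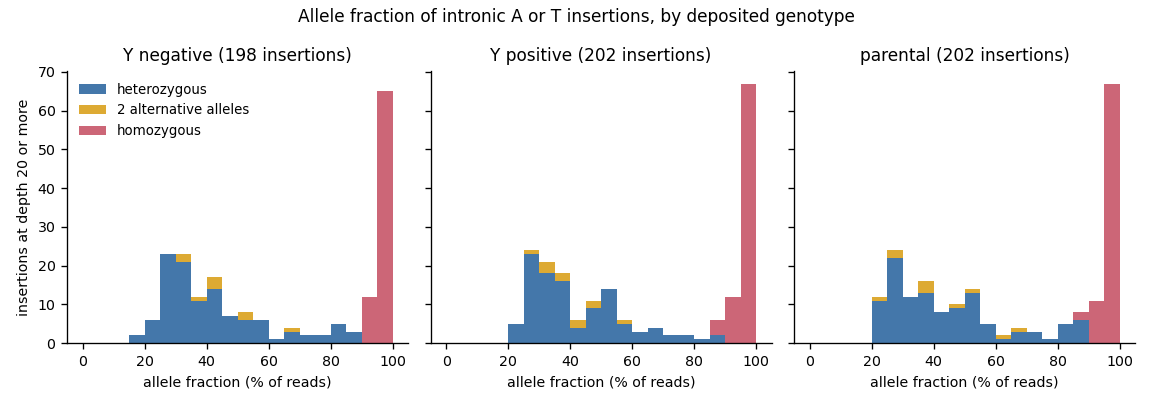
Number of A or T insertions with at least 20 reads by allele fraction (% of reads, bins of 5 points) in the Y negative, Y positive and parental libraries, coloured by deposited genotype. Homozygous entries pile up at 100%, and heterozygous entries have medians of 0.359, 0.370 and 0.393, left of the middle of the axis.

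The 5 members heterozygous in all 3 libraries with most reads ranged widely in allele fraction. At chr19:40437761 an A insertion in ENSMUST00000025972 was carried by 35 of 138 Y negative reads, 35 of 130 Y positive reads and 37 of 142 parental reads (25.4%, 26.9% and 26.1%). At chr14:66243035 a T insertion had 59 of 130, 60 of 133 and 63 of 153 reads, and at chr7:127277189 an A insertion had 47 of 120, 58 of 119 and 45 of 115. The A insertion at chr4:146881841 had 45 of 110, 37 of 105 and 38 of 121 reads. None of these 4 passed the Fisher exact test between any pair of libraries, while the most deeply read of the 5, at chr5:151128687, did and is described with those tests.

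A small group of sites carried 2 alternative alleles, with few reads of the reference. Such entries numbered 9 in Y negative (4.55%, 95% interval 2.10 to 8.45), 11 in Y positive (5.45%, 2.75 to 9.53) and 10 in parental (4.95%, 2.40 to 8.92). The share among A or T deletions was 3.41%, 4.28% and 3.16% and among G or C indels 6.62%, 6.75% and 5.11%. By Fisher exact tests, none of these 6 differences passed (adjusted p between 0.484 and 1).

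Over all depths there were 34 such entries at 20 places. The second allele was an insertion of 2 of the same base in 19 entries at 10 places, a deletion of the same base in 14 entries at 9 places, and another insertion in 1 entry, at chr13:38150505. Nearly all these sites thus differed in the number of copies of 1 base. The insertion was carried by a median of 41.1% of the reads (21.9% to 68.8%), and reads with neither alternative allele made up a median of 10.2% (0% to 25.5%).

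Of the 20 places, 5 had 2 alternative alleles in all 3 libraries, 4 in 2 libraries and 11 in 1. At chr1:32390295, where the reference reads gT, the insertion was carried by 23 of 67 Y negative reads, 29 of 84 Y positive reads and 31 of 86 parental reads, and the deletion of the same T by 32, 48 and 43 reads. At chr13:38282226 the insertion of 1 A had 24 of 58, 40 of 69 and 55 of 88 reads, and the insertion of 2 had 34, 25 and 31. The longer allele was thus the commoner one in Y negative and the shorter one in Y positive and parental.

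The other 3 of the 5 had the insertion of 1 base beside that of 2. At chr2:84607332 the single A was carried by 13 of 26 Y negative reads, 21 of 43 Y positive reads and 11 of 31 parental reads. At chr18:57453438 the single insertion had 39 of 87, 31 of 82 and 38 of 81 reads, and at chr18:58203286 it had 21 of 55, 18 of 43 and 28 of 51. Reference reads were the fewest of the 3 kinds in every library at each of these sites.

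Fewer than 4 in 10 members were listed in all 3 libraries. These were 211 of 589 (35.8%, 95% interval 31.9 to 39.8), against 54 listed in 2 libraries (9.17%) and 324 listed in 1. Of all 9059 autosomal intronic indels, 22.5% were in all 3 lists, 14.7% in 2 and 62.8% in 1. The pairs held 21 in Y negative and Y positive, 11 in Y negative and parental and 22 in Y positive and parental. The private members numbered 117 in Y negative, 87 in Y positive and 120 in parental, of which 55, 33 and 48 had fewer than 5 reads. Private and pair counts per library are not given here over all indels. Whether the differences between libraries are particular to the insertions was not tested. A list names only called variants, so absence from it is not a measured reference genotype. Of the 301 members with at least 20 reads in some library, 152 (50.5%) were in all 3 lists, 27 (8.97%) in 2 and 122 (40.5%) in 1. The same shares over the 3161 autosomal intronic indels of that depth were 45.9%, 19.9% and 34.2%. These shares over the lists were not tested.

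Sharing went with genotype and depth. Homozygous insertions with at least 20 reads were in all 3 lists for 77 of 77 Y negative, 83 of 83 Y positive and 78 of 80 parental entries. With fewer than 5 reads the homozygous shares were 13.2%, 11.1% and 18.8%. Heterozygous insertions with at least 20 reads were in all 3 lists in 53.6%, 50.9% and 56.3% of cases, and 44, 33 and 36 of them were private.

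**Figure D3:**
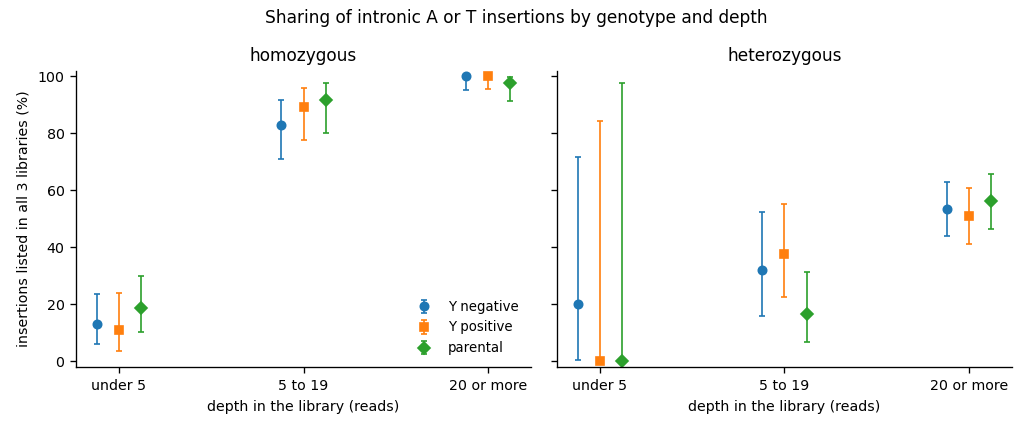
Share of A or T insertions (%) listed in all 3 libraries by depth in the library counted (reads), for homozygous entries on the left and heterozygous entries on the right; points are the Y negative, Y positive and parental libraries and error bars exact 95% intervals. Homozygous entries lie between 11.1% and 18.8% under 5 reads and between 97.5% and 100% at 20 or more, and heterozygous entries at 20 or more between 50.9% and 56.3%.

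Private heterozygous insertions also had lower allele fractions than shared ones. At 20 or more reads their medians were 0.292 in Y negative, 0.298 in Y positive and 0.279 in parental, against 0.462, 0.486 and 0.508 for heterozygous insertions in all 3 lists. An allele fraction under 0.3 was found in 23 of 44, 17 of 33 and 23 of 36 private ones, and in 5 of 60, 5 of 55 and 5 of 63 of those in all 3 lists. Listing in all 3 libraries requires a call in each, so the grouping is not independent of allele fraction. The difference between private and shared insertions was not tested.

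With all genotypes together at 20 or more reads, 143 of 198 Y negative (72.2%), 143 of 202 Y positive (70.8%) and 147 of 202 parental insertions (72.8%) were in all 3 lists. A or T deletions were shared less often, at 58.7%, 61.0% and 63.7%, and each difference passed the Fisher exact test (adjusted p = 0.00273, 0.0388 and 0.0473). That adjustment includes the homozygous share tests, added after their values were seen, whose small p ease it for the rest. The unadjusted Fisher exact p were 0.000454, 0.0113 and 0.0158, and the Y positive and parental calls rest on that addition. Nearly all homozygous insertions of this depth were in all 3 lists, and deletions were less often homozygous. Because homozygous members were clustered along chromosomes, the Fisher exact p-values for sharing are too small as well. The difference in sharing was not tested apart from that in genotype. G or C indels were at 71.0%, 76.2% and 74.8%, and no difference from them passed the Fisher exact test (adjusted p = 0.873, 0.435 and 0.759). With no depth minimum insertions were above G or C indels by 10.2, 10.9 and 8.86 points and passed in all 3 libraries (Fisher exact test, adjusted p = 0.00813, 0.00592 and 0.0180), which turns the sign in Y positive and parental. Against A or T deletions the differences were 13.6, 9.79 and 9.09 points. With a minimum of 40 reads they were 12.1, 10.9 and 9.45 points over fewer entries and none passed the Fisher exact test (adjusted p = 0.0653, 0.0801 and 0.156). Without chromosomes 3, 4 and 18, an alternative chosen after the values were seen, they were 7.90, 5.56 and 9.09 points and none passed (Fisher exact test, smallest adjusted p = 0.202).

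A private insertion was not always a place where the other libraries listed nothing. Among the private members with at least 20 reads, 7 of 45 Y negative (15.6%), 10 of 36 Y positive (27.8%) and 8 of 41 parental ones (19.5%) had another indel at the same call position in another library. Over the 25 such members, another library listed a single-base deletion at 19, an insertion of 2 or more bases at 5 and the same insertion under another start at 2, with 1 member counted in 2 of these kinds. An insertion called beside a deletion is given a start 1 base further on in the files, as at 9 members. For 2 insertions the libraries therefore gave different starts, so that the 589 members are 587 by call position.

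The private members of the Y negative library with the highest allele fractions were read at moderate depth. An A insertion at chr3:78886439, in ENSMUST00000118100, had 21 of 29 reads there, and parental listed an insertion of AA at that position with 27 of 38 reads. A T insertion at chr17:56825408 had 40 of 83 reads, and parental listed a deletion of T there with 27 of 99. A T insertion at chr17:68214046 had 11 of 25 reads, with no other allele listed at its call position in the other libraries.

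In Y positive the T insertion at chr1:11091130, in ENSMUST00000027056, had 94 of 172 reads, and Y negative listed a deletion of T at the same position with 37 of 188. The A insertion at chr6:68220881 had 40 of 85 reads, and the T insertion at chr14:104087154 had 8 of 21, where parental listed a T deletion with 6 of 16. Both of the deletions named here stood at the call position of an insertion of the same base.

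In the parental library 1 private member stood apart by being homozygous at high depth. The T insertion at chr5:130300579, in an intron of ENSMUST00000031402, had 104 of 104 reads, and the parental list also held a homozygous insertion of 106 bases 2 bases further on, with 103 of 103 reads. Neither is in the Y negative or Y positive list. The A insertion at chr14:30918493 had 16 of 23 parental reads and is the same insertion that the Y negative and Y positive files give a start 1 base further on, with 10 of 20 and 9 of 22 reads beside a deletion of A. The A insertion at chr6:130176337 had 12 of 22 reads in parental.

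At chr8:119651309 the libraries differed in which lengths were called. Parental listed the insertion of 1 T with 21 of 82 reads beside that of 2 with 59. Y negative listed insertions of 2 and 3 bases with 59 and 18 of 78 reads, and Y positive the same pair with 48 and 19 of 71 reads. The insertion of 2 was the commonest allele in all 3 libraries, and only the parental list makes this site a member.

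Genotypes of members in all 3 lists were mostly the same. The genotype matched in all 3 libraries at 187 of the 211 (88.6%), of which 123 were homozygous, 59 heterozygous and 5 had 2 alternative alleles. With at least 20 reads in each library it matched at 123 of 134 (91.8%), of which 68 were homozygous, 50 heterozygous and 5 had 2 alternative alleles. At 10 of the other 11 the genotype was homozygous in some libraries and heterozygous in others, with the insertion in 75% to 100% of the reads throughout. For example, the T insertion at chr2:83602005 was homozygous with 91 of 100 Y negative reads and 101 of 105 Y positive reads, and heterozygous with 88 of 102 parental reads. The remaining site, chr3:85920828, had 2 alternative alleles in Y negative and parental and was homozygous for the T insertion in Y positive.

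Where a member was measured in all 3 libraries with at least 20 reads, its allele fraction varied with genotype. The 50 heterozygous in all 3 had a median range of 11.8 points between the highest and the lowest library, with a maximum of 34.6 and 11 members over 20 points. The 68 homozygous in all 3 had a median range of 0 points and a maximum of 11.4. Across heterozygous members listed in both libraries, Pearson's r of allele fraction was 0.75 for Y negative and Y positive (58 members), 0.71 for Y positive and parental (61) and 0.72 for Y negative and parental (55). These coefficients describe insertions of the same libraries and are given without a test.

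Allele fractions were then tested site by site between libraries, over all indels with 1 alternative allele and at least 20 reads in each library of a pair. Setting Y negative against Y positive, 1 of 137 members (0.730%) passed the Fisher exact test at an adjusted p under 0.05, against 0.794% of all 2645 sites. Between Y positive and parental it was 1 of 144 (0.694%), against 0.874% of 2745 sites, and between Y negative and parental 1 of 134 (0.746%), against 0.302% of 2651 sites. The unadjusted Fisher exact p was under 0.05 at 7, 7 and 9 members (5.11%, 4.86% and 6.72%). Over all sites tested the shares were 6.20%, 6.23% and 5.47%. With a single member called in each comparison, no difference from the shares over all sites can be read. The median absolute difference of the members was 2.08, 2.65 and 2.19 points.

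The T insertion at chr5:151128687, in an intron of ENSMUST00000045502, was the member with most reads. It was carried by 148 of 318 reads in Y negative (46.5%, 95% interval 41.0 to 52.2), 77 of 297 in Y positive (25.9%, 21.0 to 31.3) and 155 of 341 in parental (45.5%, 40.1 to 50.9). The Y positive interval did not overlap those of the other libraries. Y negative was 20.6 points above Y positive (Fisher exact test, adjusted p = 4.57e-05), and Y positive was lower than parental by 19.5 points (Fisher exact test, adjusted p = 0.000102). Between Y negative and parental the difference was 1.09 points (Fisher exact test, adjusted p = 1). All 3 entries were heterozygous.

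The A insertion at chr16:29277829, in ENSMUST00000075806, stood apart in Y negative. It was carried by 55 of 74 reads in Y negative (74.3%, 95% interval 62.8 to 83.8), 22 of 51 in Y positive (43.1%, 29.3 to 57.8) and 33 of 83 in parental (39.8%, 29.2 to 51.1). Y negative was 34.6 points above parental (Fisher exact test, adjusted p = 0.0182), and its difference of 31.2 points from Y positive was short of the threshold by Fisher exact test (adjusted p = 0.0696). A single-base deletion 16746 bases away, at chr16:29261083, had another order of libraries. It was carried by 73 of 179 Y negative reads, 160 of 160 Y positive reads and 59 of 118 parental reads.

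**Figure D4:**
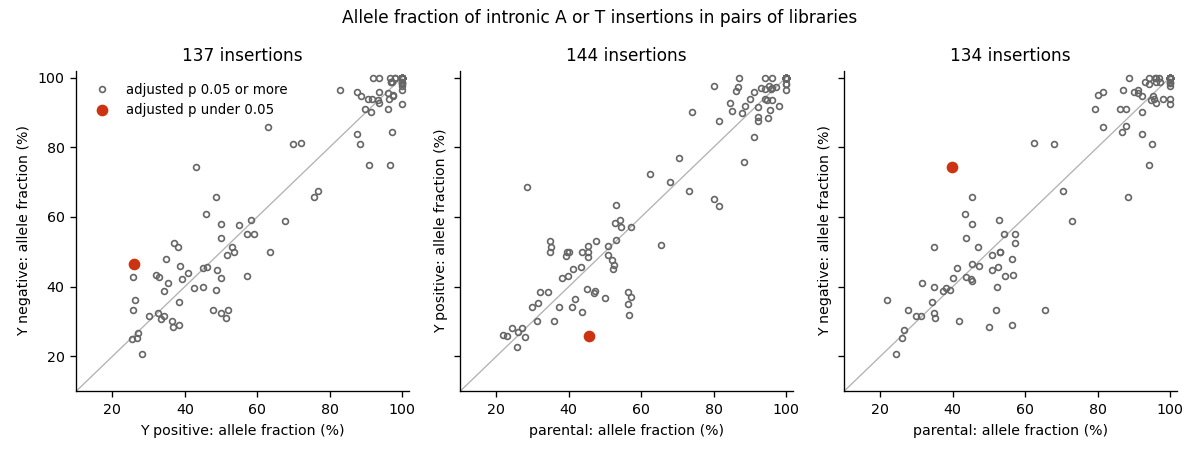
Allele fraction (% of reads) of each A or T insertion with 1 alternative allele and at least 20 reads in both libraries, for Y negative against Y positive (137 insertions), Y positive against parental (144) and Y negative against parental (134); the line marks equal values. The filled point in each panel is the single insertion with an adjusted p under 0.05 (chr5:151128687 in the first and second panels, chr16:29277829 in the third), and axes start at 10%.

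The members were spread unevenly over the genome. Chromosome 3 held 73, chromosomes 4 and 18 held 54 each and chromosome 8 held 48, while chromosome 12 held 9. As a share of a chromosome's intronic indels the members were 9.58% on chromosome 3 (95% interval 7.58 to 11.9), 10.6% on chromosome 4 (8.07 to 13.6), 10.9% on chromosome 18 (8.27 to 13.9) and 3.04% on chromosome 12 (1.40 to 5.69). The share over all 19 autosomes was 6.50%.

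The uneven spread lay largely in the homozygous insertions. Counts by chromosome, window and stretch are at any depth, and 68 of the 123 members homozygous in all 3 libraries had at least 20 reads in each. Of the 123, chromosome 3 held 24, 18 held 23, 8 held 15, and 11 and 4 held 13 each, together 88 (71.5%). The same 5 chromosomes held 16 of the 59 members heterozygous in all 3 (27.1%) and 33.6% of autosomal intronic indels. They were picked for their homozygous counts, so the contrast is a description. The 33.6% covers indels of any genotype. Other intronic indels homozygous in all 3 libraries were not counted by chromosome, so whether this spread is particular to the insertions was not tested. In windows of 10 Mb, the 59 heterozygous ones lay in 49 windows with at most 2 in any, and the 123 homozygous ones in 39 windows.

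Of those 39 windows, 8 held at least 5 members homozygous in all 3 libraries, and together they held 63 of the 123. The windows were picked for their homozygous insertions, which by itself raises their insertions relative to deletions, so their counts are a description. They held 130 members and 130 A or T deletions, while the whole set is 589 insertions beside 2060 deletions, and 2 of their members were heterozygous in all 3. The fullest was chr3:80000001-90000000 with 38 members of 295 intronic indels, 14 of them homozygous and 1 heterozygous in all 3 libraries. The next 3 stretches had been set earlier as homozygous stretches of these same data, so their counts are a description too. Within the stretch of chromosome 3 at 85 to 95 Mb, 14 of 34 members were in all 3 lists, 13 of them homozygous in each and 0 heterozygous in each. On chromosome 2 at 80 to 95 Mb the counts were 11 of 14 with 8 homozygous and 0 heterozygous, and on chromosome 11 at 40 to 55 Mb 14 of 24 with 13 homozygous and 1 heterozygous.

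**Figure D5:**
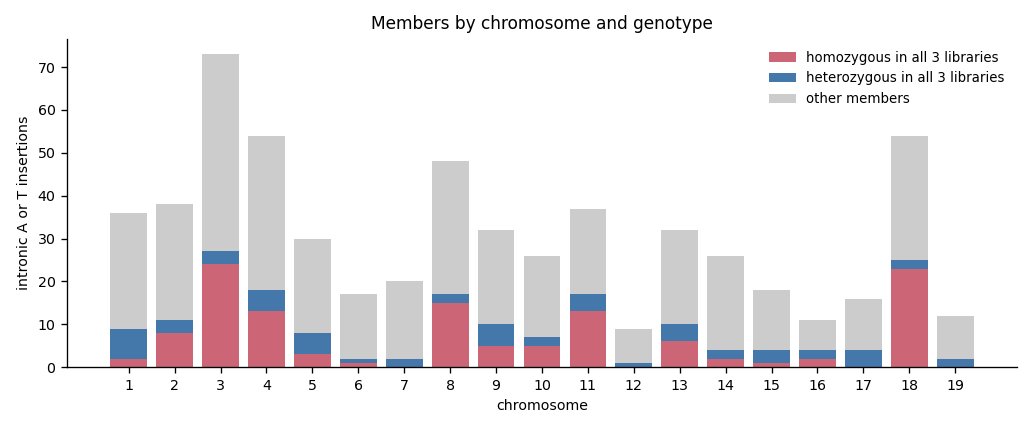
Number of A or T insertions of any depth on each autosome, divided into those homozygous in all 3 libraries, those heterozygous in all 3 and the other members. Chromosomes 3, 18, 8, 11 and 4 hold 88 of the 123 members homozygous in all 3 libraries, and chromosome 12 has the fewest members, 9.

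By transcript the members fell in introns of 473 first-named transcripts, 71 of them with more than 1 member. The most was 7, in ENSMUST00000082226 on chromosome 3, and every entry of these 7 was homozygous. At chr3:86114542 a T insertion had all 57, 63 and 49 reads in Y negative, Y positive and parental, and the A insertion at chr3:86153111 had 46 of 49, 79 of 82 and 66 of 66. Of the other 5, 3 were in all 3 lists and 2 in fewer, with 2 reads in each library that listed them. ENSMUST00000040523 on chromosome 11 followed with 6 members. No gene symbols could be given, since 0 of the 1125 transcript identifiers matched the gene table used for names.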

How the data were processed

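Each library's deposited file listed its indels by position, annotation, genotype and read counts. Per the submitters' processing notes, BWA (a read aligner) and Picard (a read file toolkit) were used, with builds mm9 and mm10 named. The files reach chr1:197068016, beyond the last gene of GRCm38 (195291439), so the coordinates are not mm10. The caller is not given in the sources used here. The authors' counts were reads per allele as whole numbers, and all entries passed the authors' filter. The authors' deposited quality score was not used.

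Allele fraction was the insertion's reads over the reads of all alleles. Shares were compared with intronic single-base A or T deletions and G or C indels by two-sided Fisher exact tests (SciPy 1.17.1, statsmodels 0.14.6, pandas 2.3.3), adjusted by Benjamini-Hochberg over 24 tests. Allele fractions were tested per site over all indels, adjusted per pair of libraries. The threshold was an adjusted p of 0.05. Both steps were run on simulated data with entries and reads drawn independently, so clustering of entries was not part of that check. The 3 libraries were also set side by side without a test.

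Named sites were those past the allele fraction test, the 3 private sites per library with the highest allele fraction at 20 or more reads, and the 5 most deeply read sites homozygous, heterozygous or with 2 alternative alleles in all 3 libraries. Other sites named were chosen after their values were seen. The members and comparisons were chosen with earlier results of these data known. The homozygous share, matching by call position and leaving out chromosomes 3, 4 and 18 were added after values were seen.

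Alternatives were other depth minimums, another allele fraction limit, isolated entries, looser matching, the depth field as denominator, sites with 2 alternative alleles and a chi-square test.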

Additional observations from a re-analysis of the deposited data

Results flagged for a closer look

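The T insertion at chr5:151128687 drew attention because its allele fraction differed between the derived lines while Y negative and parental were close. It was carried by 46.5% of 318 Y negative reads, 25.9% of 297 Y positive reads and 45.5% of 341 parental reads, and Y negative was 20.6 points above Y positive (Fisher exact test, adjusted p = 4.57e-05). The adjusted p for this pair lay between 3.76e-05 and 7.89e-05 over the alternatives run. The test compares the reads of 1 library per line.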

How the results depend on the processing

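The excess of homozygous insertions over A or T deletions passed in all 3 libraries under each alternative, from 18.3 to 30.5 points, with the low end without chromosomes 3, 4 and 18. Below, differences are insertions minus comparator in percentage points, with Fisher exact tests and the adjusted p in brackets. The cause of each change was not tested, and higher minimums leave fewer entries.

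For insertions in all 3 lists against A or T deletions, calls were lost at 40 reads (12.1, 10.9 and 9.45 in Y negative, Y positive and parental), and, in Y positive and parental, with isolated entries (9.06 and 8.40), matching by start (8.39 and 8.04) and matching by call position (6.99 and 8.84). Parental lost it with no minimum (5.45), and all 3 without chromosomes 3, 4 and 18 (7.90, 5.56 and 9.09). Against G or C indels the sign turned in Y positive and parental at 10 reads (4.31 and 1.69) and with no minimum (10.9 [0.00592] and 8.86 [0.0180], past the threshold). In Y negative the difference passed with no minimum (10.2 [0.00813]) and turned with matching by start (-0.66), by call position (-2.60) and without the 3 chromosomes (-5.31).

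For allele fractions under 0.3 against A or T deletions, Y positive and parental lost the call at 40 reads (13.8 and 11.6), at a limit of 0.25 (0.30 and 5.63) and without the 3 chromosomes (9.00 and 11.4), and Y negative turned at 0.25 (-2.61). Against G or C indels, Y negative and Y positive turned at 0.25 (-4.23 and -2.90) and parental passed at 10 reads (14.9 [0.00194]) and had a difference of 0 at 40 reads.

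For homozygous insertions against G or C indels, Y negative and Y positive passed at 10 reads (9.02 [0.0498] and 11.6 [0.00916]) and with no minimum (8.07 [0.0315] and 8.46 [0.0287]), and all 3 turned without the 3 chromosomes (-1.99, -3.50 and -2.51). For 2 alternative alleles against G or C indels the sign turned, with no call, at 10 reads (0.0739 in Y negative and 0.462 in parental), at 40 (2.01, 0.475 and 1.58) and with no minimum (0.405, 0.130 and 0.610).

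Over the depth field, median heterozygous allele fractions moved to 0.321 in Y negative and to 0.333 in Y positive. Including sites with 2 alternative alleles, 2 members passed between Y negative and Y positive, adding chr3:85920828 (Fisher exact adjusted p = 0.0344), and 2 between Y negative and parental, adding chr9:67747710 (Fisher exact adjusted p = 0.0383). The other 111 values kept direction and call. No paired analysis was possible because each group held 1 library. Below 20 reads allele fractions are less precise.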
